A study of Mus musculus with 4 samples.

Results

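The genes described are 9 that encode enzymes, binding proteins and receptors of retinoic acid: Aldh1a1, Aldh1a2, Aldh1a3, Rara, Rarb, Rarg, Cyp26b1, Crabp2 and Rbp4. They were read through every probe set of the array annotated to 1 gene symbol, that symbol being among the 9, so 9 of the 18193 genes on the array were read through 12 of 45037 probe sets that are not array controls. Aldh1a3 had 3 probe sets, Rarg had 2 and each of the other genes had 1. A probe set is a group of short probes whose combined brightness is reported as 1 intensity.

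Retinoic acid is made from vitamin A inside tissues and switches genes on or off through nuclear receptors. In plasma, retinol is carried by RBP4. Inside cells, dehydrogenases oxidize retinol to retinaldehyde, and the ALDH1A enzymes oxidize retinaldehyde to retinoic acid. CRABP2 delivers retinoic acid to the nucleus, the receptors RARα, RARβ and RARγ bind it together with RXR partners, and CYP26 enzymes break it down. In mouse kidney and ureter development, retinoic acid made in the stroma acts on the ureteric bud and on the joining of the ureter to the bladder.

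Transcripts were measured on 3 arrays of whole ureters and on 1 array of whole mice. The ureters came from male FVB/N mice at postnatal day 1 (Theiler stage 27) with an SMGA/EGFP transgene (SMGA is the smooth muscle form of gamma-actin, the product of Actg2), and were freed of kidney and bladder without pooling. The whole mouse sample was a pool of both sexes of the same strain, day and stage, for which the labels give no transgene. Differences of tissue therefore cannot be told apart from those of transgene, sex or pooling. All 4 samples went through 2 rounds of RNA amplification, and the labels leave it unsaid whether each ureter sample had its own animal. The p-values rest on how far these 3 samples differ, a spread that may be technical. An exact permutation of 3 arrays against 1 cannot give a p below 0.25, so the tests below come from limma fitted across 27022 probe sets, with the spread taken from the ureters alone.

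All 5 smooth muscle markers and 4 of 5 urothelial markers were past the threshold as higher in ureters, the exception being Upk2. The ureters differed in markers of kidney: 5 tested nephron markers summed to a normalized intensity of 497 in ureter replicate 1, 9587 in replicate 2 and 4169 in replicate 3, against 4840.0 in the whole mouse. Slc12a1, a transporter gene of the nephron's thick ascending limb, read 50.2, 4205 and 711 in the 3 ureters, against 828 in the whole mouse. Across all tested probe sets, log2 values of 2 ureters correlated with Pearson's r of 0.905 to 0.937, and those of a ureter and the whole mouse with 0.742 to 0.769, as a description. Without ureter replicate 3, the calls over all probe sets were 49 higher and 268 lower, against 725 and 942 with all arrays.

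**Figure D1:**
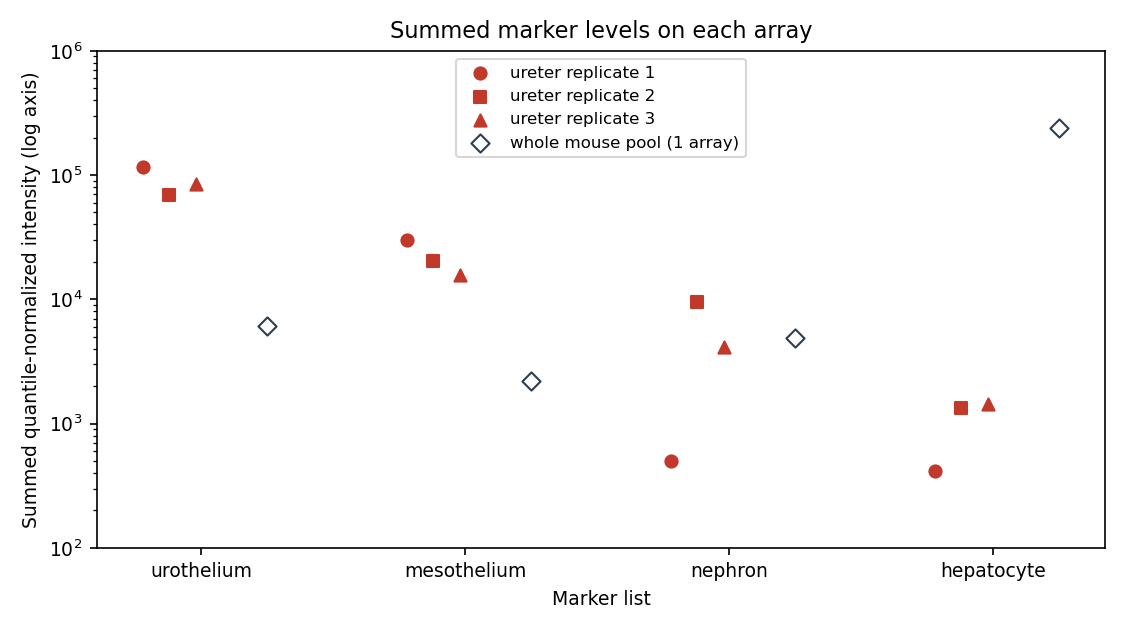
Summed quantile-normalized intensity (log axis) of the markers of urothelium, mesothelium, nephron and hepatocytes on each array, filled symbols for the 3 ureters and the open diamond for the whole mouse. Nephron markers were at 497 in ureter replicate 1 and at 9587 in replicate 2, while hepatocyte markers were below 1500 in every ureter and at 237714 in the whole mouse.

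The sequence shown is the start region of Rarb, because this receptor gene is itself a textbook target of retinoic acid in mouse and human cells. The receptors bind DR5 elements, in which 2 hexamers follow each other on the same strand with 5 bases between them. The hexamers searched were AGGTCA and its variants, namely AGTTCA and also GGGTCA and also GGTTCA. Both strands of 300-base windows (250 bases before and 50 after each start) were searched in the RefSeq table of mouse build GRCm38.p6. A DR5 was found in 32 of 32851 windows (0.0974%), while a single hexamer of any of the 4 spellings was found in 43.7% of them. Of the 9 genes, 7 had windows in the table, 13 in all, and only Rarb had a DR5, from 53 to 37 bases before the start. Its window, chr14:16575427-16575726 on the minus strand, is given with the hexamers of the DR5 in capitals. The DR5 near a start of Cyp26a1, a retinoic acid-degrading gene that lies on chromosome 19 and is not among the 9, follows for comparison, read on the strand opposite to the gene. A single hexamer besides those of the DR5 lies from 83 to 78 bases before the start of Rarb and does not overlap it. A match is a stretch of letters and was not tested for binding.

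Rarb window: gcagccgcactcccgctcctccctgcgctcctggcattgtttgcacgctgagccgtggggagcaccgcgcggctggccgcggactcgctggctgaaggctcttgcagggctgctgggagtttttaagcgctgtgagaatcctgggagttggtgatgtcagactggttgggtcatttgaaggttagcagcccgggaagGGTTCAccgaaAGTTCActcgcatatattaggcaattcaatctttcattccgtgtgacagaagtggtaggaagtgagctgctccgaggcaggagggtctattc
Rarb element: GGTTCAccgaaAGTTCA
Cyp26a1 element: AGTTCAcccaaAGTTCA

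Of the 12 probe sets, 10 passed the filter on dim signals and were tested. The retinol carrier gene Rbp4 fell in the ureters, and no other of the 10 was past the threshold (adjusted p under 0.05), so 1 of 10 was lower and 0 were higher. Among all 27022 probe sets tested, 6.17% were called, 3.49% as lower and 2.68% as higher. All 3 ureters lay above the whole mouse in 3 of the 10 probe sets and below it in 4, while over all probe sets 39.1% had every ureter above and 29.3% every ureter below. At an unadjusted p under 0.05, Aldh1a2 lay on the higher side and Aldh1a1, Cyp26b1 and Rbp4 on the lower, that is 1 and 3 of 10 against 13.2% higher and 10.9% lower over all probe sets. The median log2 difference, ureter minus whole mouse, was 0.075 over the 10 and 0.11 over all probe sets. Intensities below are quantile normalized, differences are log2 differences of the intensity plus 12.23 with their standard errors (SE), and in whole organs fewer cells of a type and less RNA per cell cannot be told apart.

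**Figure D2:**
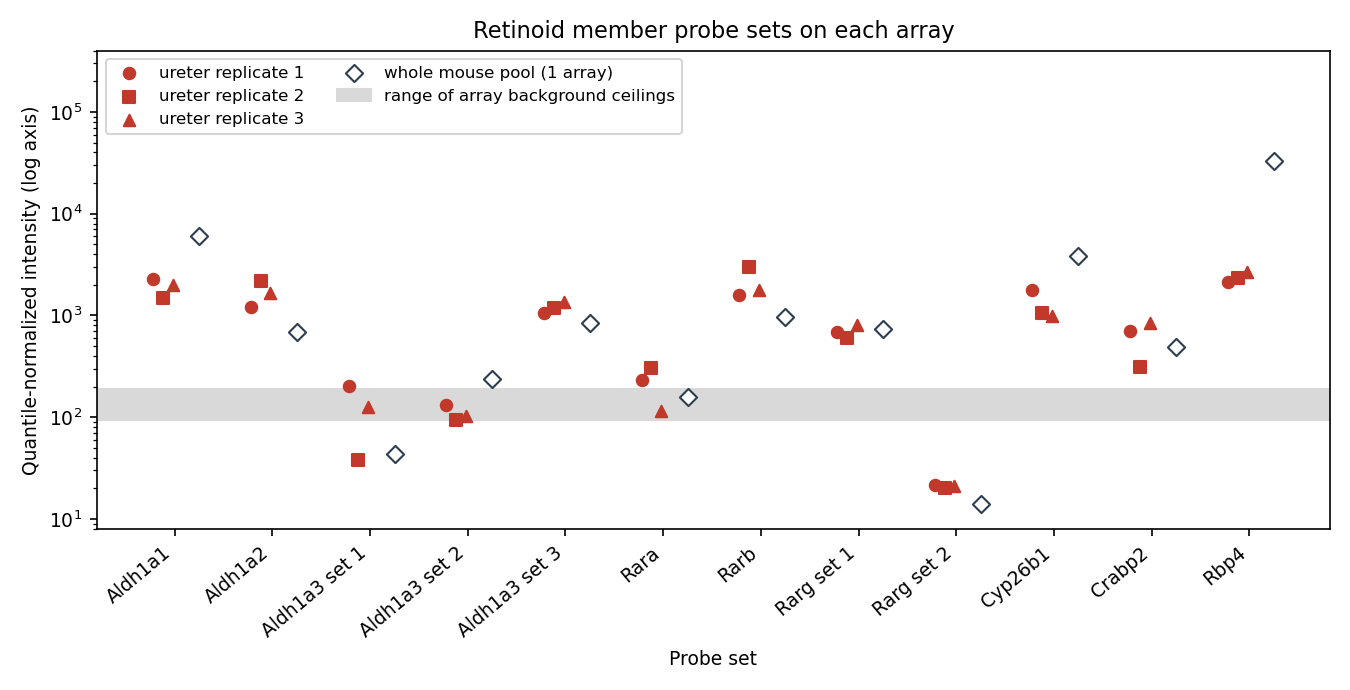
Quantile-normalized intensity (log axis) of each of the 12 probe sets on each array, filled symbols for the 3 ureters and open diamonds for the whole mouse, with the background ceilings of the 4 arrays as a grey band. Rbp4 read 2112 to 2647 in the ureters and 33128 in the whole mouse, while 1 Rarg probe set lay below the band on all arrays.

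Rbp4 encodes the protein that carries retinol in plasma, made mainly by liver. Its intensity was 2112, 2318 and 2647 in the 3 ureters, against 33128 in the whole mouse. The ureters lay close together and far below the whole mouse. Rbp4 fell by 3.81 ± 0.31 on the log2 scale, 14.0-fold lower in ureters (limma adjusted p = 0.00619), and all 3 ureters shared the direction. Only 2.73% of all tested probe sets had a difference as low.

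Of the hepatocyte markers 5 of 5 tested were lower, each by more than Rbp4 and 3 passing the filter only through the whole mouse, with summed intensities of 413 to 1448 in the ureters and 237714 in the whole mouse. Apoa1, Ahsg and Fgb, plasma protein genes of liver, were at background in every ureter and at least 396-fold, 325-fold and 317-fold lower. Alb, the albumin gene, read 129, 1084 and 1070 in the ureters, against 82100.0 in the whole mouse (149-fold lower), whereas Apoa2 was 18.8-fold lower. Low values were not particular to hepatocyte markers. Median log2 differences were -8.30 for intestine, -7.57 for adipocyte, -7.20 for epidermis and -5.03 for lung markers. The medians of intestine, adipocyte and epidermis were those of Fabp2, Adipoq and Krt1. All of these genes passed the filter only through the whole mouse, so a lower value was built into their being tested. Adipoq and Krt1 were at background in every ureter and at least 88.1-fold and 87.4-fold lower. Median differences were -4.24 for erythroid and -4.13 for neuron markers, but -0.56 for nephron and -0.17 for macrophage markers. Rbp4 stayed above background in all 3 ureters. Replicate 1 was the lowest ureter in Rbp4 (2112), in Alb (129) and in the nephron markers, but the highest in Apoa2 (243). Rbp4 was highest in replicate 3 (2647), whereas the nephron markers were highest in replicate 2. The parts of liver RNA and of kidney RNA in the Rbp4 signal of the ureters were not tested. By likeness of the 3 ureter minus whole mouse differences, the closest of 13161 other genes were Map2, a neuronal microtubule protein gene (root mean square distance of 0.054 log2), Nsg2 (0.14) and Lcn11 (0.16), over 4 arrays.

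None of the ALDH1A enzyme genes, whose products make retinoic acid, passed the threshold. Aldh1a1 read 2280.4, 1483 and 1988 in the ureters, against 6066 in the whole mouse. Every ureter was below the whole mouse, by -1.68 ± 0.39 (a whole mouse level 3.20-fold that of the ureters), and the difference did not pass (limma adjusted p = 0.0633, 95% interval -2.63 to -0.72). Aldh1a7, a close paralog of Aldh1a1 with a probe set of its own, read 26009, 15959 and 18027 in the ureters, against 9678 in the whole mouse, and did not pass either (1.01 ± 0.31, adjusted p = 0.121). It was chosen after its values were seen. How far the probe sets of these related genes pick up each other's transcripts was not tested.

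Aldh1a2 encodes the enzyme that makes most retinoic acid in the mouse embryo and is known from stroma and mesothelium. It read 1198, 2173 and 1652 in the ureters, against 690 in the whole mouse. All 3 ureters were above the whole mouse, replicate 2 the most, and the difference of 1.22 ± 0.46 (2.34-fold) did not pass over all probe sets (limma adjusted p = 0.180, 95% interval 0.09 to 2.35). Of 4 mesothelial markers, Upk3b and Wt1 were higher past the threshold and Msln and Lrrn4 were not past it. Their sum was 30161, 20395 and 15747 in the ureters, against 2214 in the whole mouse, with Upk3b the largest part of it. Wt1 read 1207, 1733 and 1661 in the ureters, against 221 in the whole mouse, and so had the order of Aldh1a2, which the sum did not. Upk3b (24048, 13029 and 12597), Msln (2414, 1660 and 700) and Lrrn4 (2493, 3973 and 788) did not have that order and were lowest in replicate 3. The sum of the nephron markers (497, 9587 and 4169) had the same order as Wt1. Replicate 2, highest in Aldh1a2, was also highest in nephron markers. Of 5 markers of ureteric mesenchyme and stroma, 3 were higher past the threshold and 2 were not past it. Their sum was 160301, 159465 and 159027 in the ureters, against 83638 in the whole mouse, and did not have the order of Aldh1a2. The part of any of these cell types in the result was not tested, and without replicate 2 the difference of Aldh1a2 was 1.02.

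Aldh1a3, the remaining enzyme of this group, was read differently by its 3 probe sets. The brightest gave 1068, 1190 and 1362 in the ureters, against 839 in the whole mouse, with all ureters above and no call (0.51 ± 0.40, limma adjusted p = 0.491). A dimmer one gave 131, 93.9 and 102 in the ureters, against 238 in the whole mouse, with all ureters below and no call (-1.06 ± 0.69, limma adjusted p = 0.410), and only replicate 1 was above its background. This one passed the filter only through the whole mouse. The third gave 202, 37.7 and 127 in the ureters, against 43.4 in the whole mouse. It was removed by the filter, and only replicate 1 was above background. The direction of Aldh1a3 therefore depended on the probe set, with the only one above background on all arrays pointing up.

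**Figure D3:**
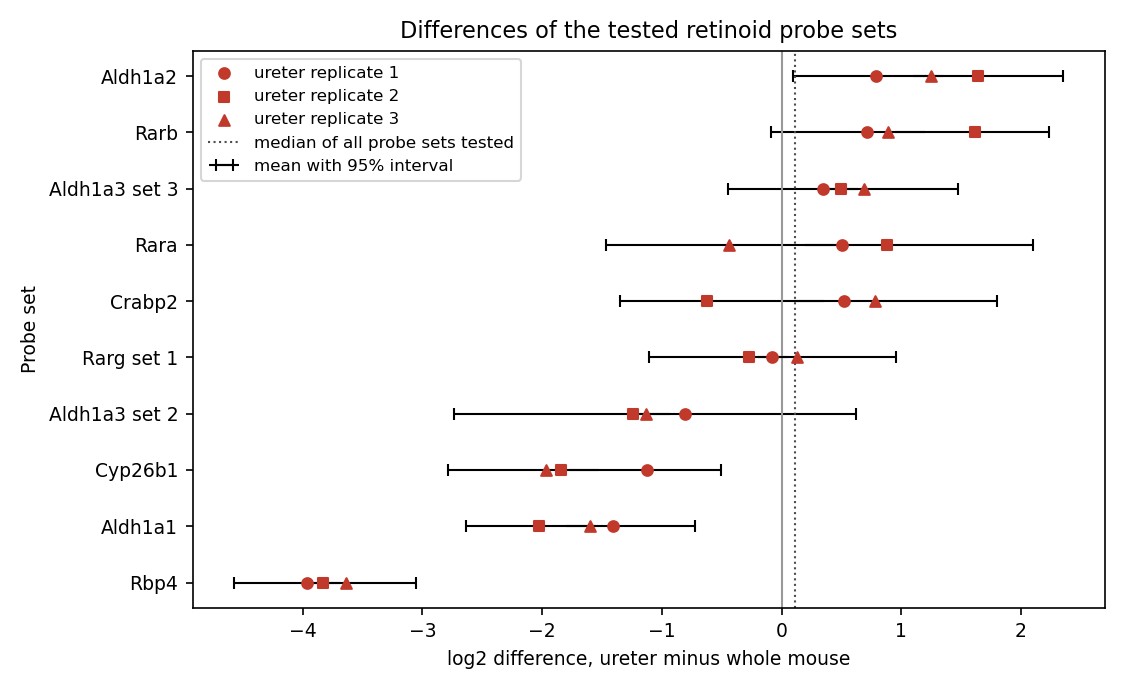
Log2 difference, ureter minus whole mouse, of the 10 tested probe sets, red symbols for the 3 ureters and black ticks and bars for the limma mean with its 95% interval. Rbp4 lies near -3.8, Cyp26b1 and Aldh1a1 near -1.7 with intervals below 0, and Aldh1a2 and Rarb above 1.

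Cyp26b1 encodes an enzyme that breaks retinoic acid down. It read 1765, 1066 and 979 in the ureters, against 3865 in the whole mouse. All ureters were below the whole mouse, by -1.65 ± 0.47 (a whole mouse level 3.13-fold that of the ureters), without passing over all probe sets (limma adjusted p = 0.0991, 95% interval -2.78 to -0.51). Cyp26a1, the other degrading enzyme with a tested probe set, read 156, 44.3 and 40.5 in the ureters, against 501 in the whole mouse (-2.69 ± 0.95, adjusted p = 0.155), with only ureter replicate 1 above background. It passed the filter on dim signals only through the whole mouse, so a lower value was built into its being tested.

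Gaps between members within each array were chosen after their values were seen and are a description with no test. Aldh1a2 stood above Aldh1a1, each relative to its own whole mouse value, by 2.19, 3.66 and 2.85 log2 in the 3 ureters (mean 2.90 ± 0.74, SD, n = 3). Aldh1a2 stood above Cyp26b1 by 1.91, 3.49 and 3.21 log2 (mean 2.87 ± 0.84, SD, n = 3). The gap to Cyp26b1 was not shared by every synthesis gene: it was -0.28, -0.18 and 0.36 log2 for Aldh1a1, on both sides of 0, and 1.47, 2.34 and 2.66 log2 for the brightest Aldh1a3 probe set. A gap of this kind shows unequal difference and does not say which member differed.

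The receptor genes gave no call. Rarb read 1595, 2998 and 1798 in the ureters, against 968 in the whole mouse, with every ureter above, replicate 2 the most. Its difference was 1.07 ± 0.48 (2.10-fold, limma adjusted p = 0.239, 95% interval -0.09 to 2.23), and without replicate 2, which had the highest nephron markers, it was 0.80. The part of nephron cells in the Rarb values was not tested. Rara read 232, 304 and 114 in the ureters, against 159 in the whole mouse, so the ureters lay on both sides of it and replicate 3 was not above background (0.32 ± 0.73, limma adjusted p = 0.841). With the scaling as deposited Rara was at -0.47, so its direction is not settled.

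Rarg read 691, 604 and 803 in the ureters, against 732 in the whole mouse, which lay within the ureters' range (-0.075 ± 0.42, limma adjusted p = 0.938, 95% interval -1.11 to 0.96). A second Rarg probe set read 20.2 to 21.7 in the ureters, against 14.2 in the whole mouse, below background on all 4 arrays, and was removed by the filter. With median-centred arrays the difference of the brighter probe set was 0.33 and without ureter replicate 2 it was 0.025, so its sign is not settled. Relative to its own whole mouse value, Rarb stood above Rarg by 0.80, 1.89 and 0.75 log2 in the 3 ureters.

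Crabp2, the shuttle that hands retinoic acid to the receptors, varied most between the ureters among the brighter members. It read 700.5, 310 and 842 in the ureters, against 485 in the whole mouse, so replicates 1 and 3 were above and replicate 2, the one highest in nephron markers, below. Their part in this was not tested. The highest ureter was 2.72 times the lowest, and 82.9% of all tested probe sets varied no more than this between ureters (SD of 0.75 log2, against a median of 0.36 over all). The difference was 0.23 ± 0.65 (limma adjusted p = 0.874, 95% interval -1.35 to 1.80), -0.20 with the scaling as deposited and -0.053 without replicate 3. Rbp4 varied less than most, with an SD of 0.16 log2, and so did the brightest Aldh1a3 probe set (0.17) and Rarg (0.20).

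Differences moved with the scaling, and not all in the same direction. The median difference of all probe sets was 0.11 with quantile normalization, -0.13 with the scaling as deposited and 0.62 with median-centred arrays, and higher calls made up 43.5%, 33.5% and 48.0% of calls in the same order (444 higher and 882 lower as deposited). Against quantile normalization, the scaling as deposited put Rara, Aldh1a2 and Crabp2 lower (-0.47, 0.90 and -0.20) but Aldh1a1 and Cyp26b1 slightly higher (-1.59 and -1.61). Relative to that median, Rbp4 stood at -3.92, -3.76 and -3.75, Aldh1a1 at -1.79, -1.46 and -1.45, and Cyp26b1 at -1.76, -1.47 and -1.47. Aldh1a2 stood at 1.11, 1.03 and 1.03, and Rarb at 0.96, 0.98 and 0.99. These 5 genes thus kept their side of the median under the 3 scalings, whereas Rara was above the median with quantile normalization (0.21) and below it with the others (-0.34 and -0.38).

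**Figure D4:**
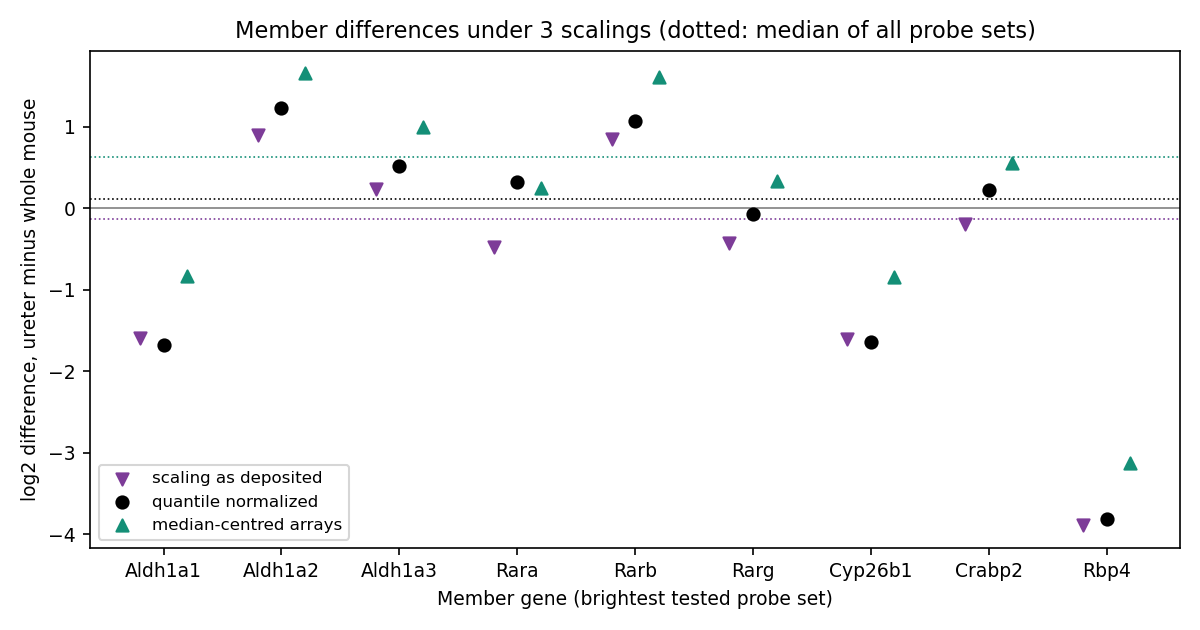
Log2 difference, ureter minus whole mouse, of the brightest tested probe set of each of the 9 genes under 3 scalings, with dotted lines for the median of all probe sets under each scaling. Rbp4 lies below -3 under all of them, and Rara, Rarg and Crabp2 cross 0.

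Other genes of the pathway were read from lists of carriers, enzymes, partners and targets, each by its brightest tested probe set. Of 58 genes listed, 51 had a probe set with 1 symbol and 41 were tested, of which 3 were higher and 6 lower. Over all 13721 genes tested, 2.94% were called higher and 4.77% lower. Without ureter replicate 3 the counts were 0 higher and 2 lower. The median difference over the 41 was -0.037.

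**Figure D5:**
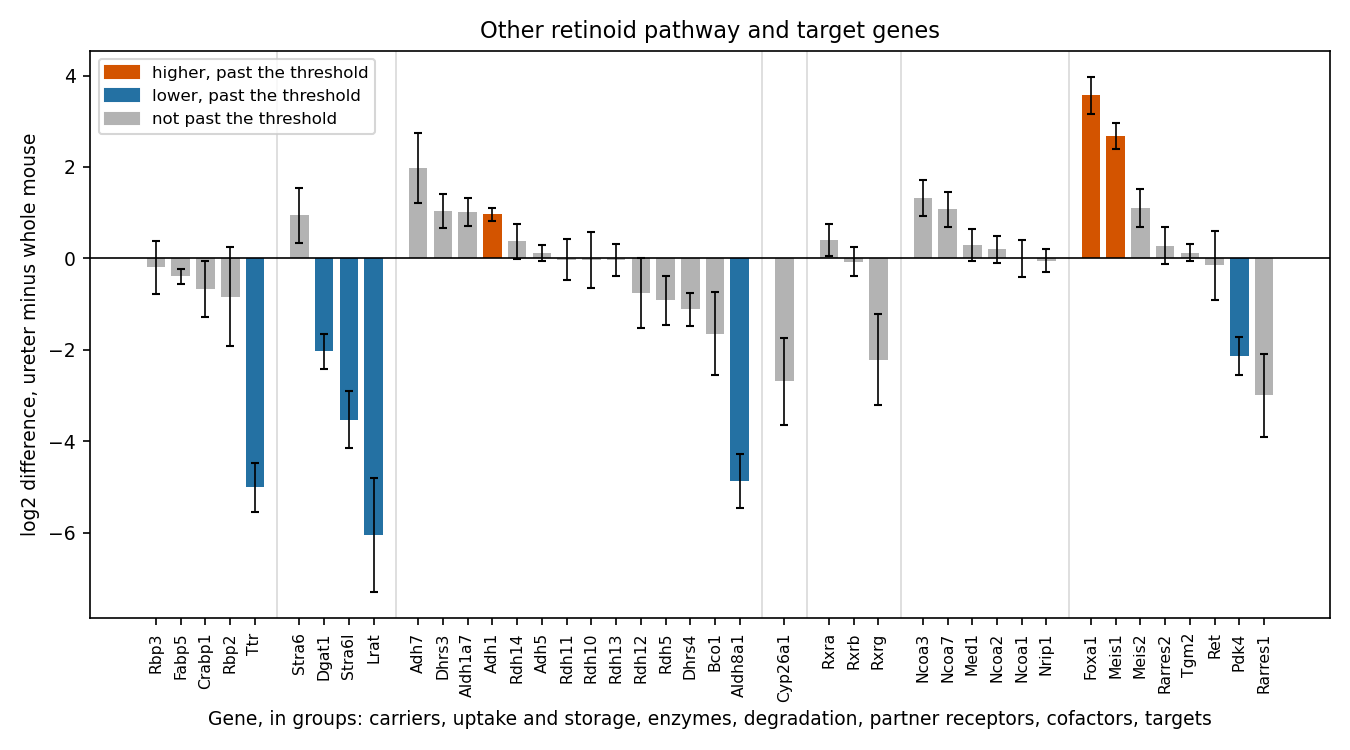
Log2 difference, ureter minus whole mouse, of 41 other retinoid pathway and target genes in 7 groups, with bars for the limma mean, error bars for its SE and colour for genes past the threshold. The called genes of plasma transport and storage lie at -2 and below, and Foxa1 and Meis1 lie above 2.

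Of the 9 calls, 4 were genes of retinol transport and storage, all lower. Among 5 other carriers and binding proteins 1 was lower, Ttr, whose product transthyretin holds the RBP4 complex in plasma: it read 3157, 1229 and 1997 in the ureters, against 64128 in the whole mouse (32.2-fold lower, limma adjusted p = 0.0105). The remaining 4 did not pass, Fabp5, an intracellular lipid-binding protein gene, at -0.39 (a dimmer probe set at -1.27) and Rbp3 at -0.20 among them. Of 4 tested uptake and storage genes 3 were lower, while over all genes tested 4.77% were. Lrat, which esterifies retinol for storage, and Stra6l, known in mouse as an RBP4 receptor gene of liver and gut, were at background in all ureters and at least 10.03-fold and 8.28-fold lower (adjusted p = 0.0463 and 0.0305). Both passed the filter on dim signals only through the whole mouse, as 2 of the 6 lower genes did, so a lower value was built into their being tested, and they add nothing to the count as support. With an offset of 1 Lrat was removed by the filter.

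Dgat1, an acyltransferase gene that also esterifies retinol, read 1163, 987 and 953 in the ureters, against 4250.4 in the whole mouse (-2.03 ± 0.38, limma adjusted p = 0.0350). Stra6, the cell-surface receptor gene for RBP4, read 188, 216 and 236 in the ureters, against 105 in the whole mouse, where it was not above background (at least 1.62-fold, adjusted p = 0.403, no call). Leaving out ureter replicate 3 gave an adjusted p of 0.104 for Lrat, 0.105 for Stra6l and 0.157 for Dgat1, and it was 0.0556 for Lrat and 0.0507 for Stra6l with the scaling as deposited. Dgat1 also lost its call with median-centred arrays (-1.25, adjusted p = 0.286) and without the variance trend (0.0616), as did Stra6l without the filter (0.0619).

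Among 14 enzymes of retinol and retinaldehyde, 1 was higher and 1 lower, against 2.94% higher and 4.77% lower over all genes tested. Adh1, an alcohol dehydrogenase gene able to oxidize retinol, read 67095, 61398 and 61398 in the ureters, against 32478 in the whole mouse (0.96 ± 0.14, 1.95-fold, limma adjusted p = 0.020). Aldh8a1, a retinaldehyde dehydrogenase gene of liver and kidney, read 124, 97.96 and 213 in the ureters, against 4369 in the whole mouse (-4.87 ± 0.59, 29.2-fold lower, adjusted p = 0.0137). Its value in ureter replicate 2 was not above background, which limits the fold, and a dimmer Aldh8a1 probe set gave -3.63. Rdh10, which makes retinaldehyde in the embryo, and Rdh11 were at -0.033 and -0.032, while a dimmer Rdh10 probe set gave 1.27 (adjusted p = 0.0935) and a dimmer one of Rdh11 -0.13. Dhrs3, which turns retinaldehyde back to retinol, read 7351, 5244 and 4547 in the ureters, against 2737 in the whole mouse, without passing (1.03 ± 0.37, adjusted p = 0.166), and was chosen after its values were seen. So was Adh7, which read 1244, 325 and 640 in the ureters, against 154 in the whole mouse. It did not pass (1.97 ± 0.76, limma adjusted p = 0.186), and a dimmer Adh7 probe set gave 4.32. The equal values of Adh1 in replicates 2 and 3 are an equal rank after quantile normalization. Adh1 lost its call without replicate 3 (0.0932), with the scaling as deposited (0.108), without the filter (0.0698) and without the variance trend (0.198).

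The partner receptors and cofactors gave no calls, 0 of 3 and 0 of 6 by limma. An unadjusted p under 0.05 was found in 0 partners and in 2 cofactors, the coactivator gene Ncoa3 (1.33) and Ncoa7 (1.07). Over all probe sets tested, 13.2% were higher and 10.9% lower at that p. In the other lists it was found in 1 of 5 carriers, 3 of 4 uptake and storage genes, 6 of 14 enzymes, 1 of 1 degradation gene and 5 of 8 targets. These counts are of genes in either direction, whereas the shares are of probe sets by direction. The degradation gene Cyp26a1 and the storage and uptake genes Lrat and Stra6l passed the filter only through the whole mouse. A lower value was therefore built into their being tested, and they add nothing to these counts as support. The partner receptor Rxrg read 153, 169 and 31.1 in the ureters, against 495 in the whole mouse (-2.22 ± 0.99, limma adjusted p = 0.242), with only 1 ureter above background. Rxrg was named after its values were seen. It passed the filter on dim signals only through the whole mouse, so a lower value was built into its being tested. The partners Rxra (0.40) and Rxrb (-0.068) did not pass either. Neither did the coactivator gene Ncoa1 (0.0027) or the corepressor gene Nrip1 (-0.054), of which a dimmer probe set gave 1.37 (adjusted p = 0.266). Other probe sets of Rxra (-0.55) and Ncoa1 (0.18) did not pass either.

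Among 8 genes listed as retinoic acid targets, 2 were higher and 1 lower, against 2.94% higher and 4.77% lower over all genes tested. Foxa1, a transcription factor gene of urothelium, read 26738, 13425 and 17857 in the ureters, against 1548 in the whole mouse (3.57 ± 0.40, 11.9-fold, limma adjusted p = 0.0122). The urothelial markers were higher too, at 69485 to 115946 summed, against 6071 in the whole mouse, and their part in the Foxa1 result was not tested. Meis1, a homeobox gene, read 9552, 10832 and 10748 in the ureters, against 1610.2 in the whole mouse (2.68 ± 0.28, adjusted p = 0.00970), although its other probe sets gave -0.55 and 0.13. Pdk4, a kinase gene of fuel choice, read 9524, 4916 and 5188 in the ureters, against 27454 in the whole mouse (-2.14 ± 0.42, adjusted p = 0.0420), and Tgm2 (0.13, with other probe sets at 0.16 to 1.01) and Ret (-0.15) did not pass. Without replicate 3 the adjusted p was 0.0558 for Foxa1, 0.0608 for Meis1 and 0.141 for Pdk4, and for Pdk4 it was also 0.0505 in the fit that left out replicate 2, 0.259 with median-centred arrays (-1.36), 0.0701 without the filter and 0.110 without the variance trend.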

How the data were processed

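The authors deposited 1 linear intensity per probe set and array. Per the submitters' processing notes the software was GCOS, with no version given, and its background step is not stated there. The trimmed mean was 1500 on every array, while medians ran from 154 to 332. The 4 arrays were therefore quantile normalized, and 12.23, which is the 10th percentile of the deposited values, was added before log2. From the 45101 probe sets, 64 controls were dropped, and of the others the 40% that were dimmest by the average of both group means. Names came from the platform annotation, and the symbols of all 9 genes matched the RefSeq table.

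Groups were compared with limma 3.58.1 under R 4.3.3 (lmFit, then eBayes with a variance trend); p-values are two-sided and were adjusted by Benjamini-Hochberg over 27022 probe sets. The fit has 2 residual degrees of freedom. Background on an array was the highest of 27 bacterial control probe sets, which left 53.8% to 66.7% of probe sets above. A fold is a bound where a group was at background on each of its arrays. The number of arrays limits the precision.

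Members, lists and tests were chosen with earlier results of these data known. Named genes were all members, up to 4 genes past the threshold and the 2 smallest differences of each list, and the 3 nearest genes of a called member.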

Additional observations from a re-analysis of the deposited data

How the results depend on the processing

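Rbp4 was lower and past the threshold in all 9 alternatives (log2 difference -3.90 to -3.13, limma adjusted p from 0.00297 to 0.0318), and the counts of members called were 1 lower and 0 higher in each of them. Of the 9 genes, 6 kept their direction throughout and 8 were called in none; the lowest adjusted p was 0.0551 for Aldh1a1 and 0.0568 for Cyp26b1. Rara was at -0.47 and Crabp2 at -0.20 with the scaling as deposited, and Rarg at 0.33 with median-centred arrays. Leaving out each ureter in turn gave -0.18 to 0.025 for Rarg, -0.053 to 0.65 for Crabp2, 49 to 905 higher and 268 to 1185 lower calls over all probe sets, and 0 to 4 higher and 2 to 7 lower among the other pathway genes. Higher calls over all probe sets were 444 with the scaling as deposited, 401 without the filter on dim signals and 269 without the variance trend, against 725. The cause was not tested. No paired analysis was possible because the whole mouse had 1 array, so the groups share fewer than 2 replicate numbers. With 1 whole mouse array, its own spread is not measured, and dim probe sets of Aldh1a3 and Rarg are limited by background.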

Other observations

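The search for DR5 elements in start regions found 31 genes, of which 11 had a probe set with 1 symbol and 8 were tested, Rarb and Cyp26a1 among them. In this list, made after the members' values were seen, 1 gene was lower and 0 were higher by limma, against 4.77% lower and 2.94% higher over all genes tested. The lower gene was Ppbp, a platelet chemokine gene, which read 802, 357 and 449 in the ureters, against 3551 in the whole mouse (-2.78 ± 0.55, adjusted p = 0.0416). In alternatives chosen after seeing the data, the call ended with median-centred arrays (adjusted p = 0.116), without the filter (0.0709), without the variance trend (0.0780) and without ureter replicate 3 (0.153). Tnfsf13b, a B cell growth factor gene, read 948, 605 and 581 in the ureters, against 139 in the whole mouse, without passing (2.22 ± 0.50, adjusted p = 0.0585). A dimmer Tnfsf13b probe set gave 0.71, and the gene was named after its values were seen. The median difference of the 8 was -1.43, with 2 having every ureter above the whole mouse and 5 every ureter below. Over all probe sets tested, 39.1% had every ureter above and 29.3% every ureter below. Of the 5, Cyp26a1 and Prokr2 passed the filter on dim signals only through the whole mouse, so a lower value was built into their being tested. The median and the count of 5 therefore say nothing about genes with a DR5.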
